A study of Mus musculus with 2 samples.

Results

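The tetraspanins described here are 10 genes chosen by name from the tetraspanin family: Cd9, Cd37, Cd53, Cd63, Cd81, Cd82, Cd151, Tspan3, Tspan4 and Tspan14. They are 10 of the 20330 genes in the table, and all 10 were among the 10297 genes that reached an FPKM of 1 in the WT library, the KO library or both. FPKM is the number of sequenced fragments per kilobase of transcript, normalised to sequencing depth, so that levels of different genes can be set side by side per length.

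The RNA came from adipose tissue macrophages (ATM) of C57BL/6 mice fed a high-fat diet for 12 weeks, sorted from visceral fat with antibodies against F4/80 and CD11b. The WT mice were hMRP8cre-;Hif-1α fl/fl;ApoE-/-, and the KO mice were hMRP8cre+;Hif-1α fl/fl;ApoE-/-. By these labels both genotypes are ApoE-deficient and have Hif1a flanked by loxP sites, and only the KO mice carried the Cre recombinase, under the promoter of human MRP8, which is active in myeloid cells and above all in granulocytes. Each genotype had 1 poly(A) RNA library, the labels give no age or sex, and whether a library pooled several animals is not stated. With 1 library per genotype no difference below has a replicate check, and none was tested.

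Tetraspanins are small proteins that cross the membrane several times and hold a large outer loop. They bind each other and partner proteins such as integrins, immunoglobulin-domain proteins and metalloproteases, and so gather these into patches of the membrane. In macrophages they are known for their parts in adhesion, in cell fusion, in traffic through endosomes and lysosomes and in the formation of exosomes, and Cd9 and Cd63 are also used as markers of lipid-laden macrophages in fat.

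HIF-1 binds a short core, ACGTG or GCGTG, at many of its target genes, and the genotypes differ in the gene for its alpha subunit. The 250 bases upstream of each RefSeq start site (GRCm38.p6) were therefore searched for both cores on both strands, in 16 windows that covered 10 of the 10 members. ACGTG was in 6 of the 16 windows (37.5%), against 16.6% of 32851 windows of all genes. GCGTG was in 5 of the 16 (31.2%), against 28.2%, and 10 of the 16 (62.5%) held at least 1 of the cores, against 38.6%. These windows lay upstream of 7 of the members, Cd37, Cd63, Cd81, Cd82, Tspan3, Tspan4 and Tspan14, that is 70% of the members against 41.5% of 27025 genes, with a mean of 1.6 windows per member and 1.22 per gene. Cd82 has 4 of the 16 windows, and no window of Cd9, Cd53 or Cd151 held a core. Cd82 and Tspan4 each gave more than 1 of the windows with a core. Promoters are shown for the members with the largest differences between the libraries, Tspan4 and Cd9, and for a pair of the most abundant members, Cd81 and Cd63, each 5′ to 3′ on the strand of its gene with the cores in capitals, where a core on the opposite strand reads CACGT or CACGC. Windows of Cd9 and Cd81 are shown without the bases that an annotated transcript of the same gene covers.
Tspan4: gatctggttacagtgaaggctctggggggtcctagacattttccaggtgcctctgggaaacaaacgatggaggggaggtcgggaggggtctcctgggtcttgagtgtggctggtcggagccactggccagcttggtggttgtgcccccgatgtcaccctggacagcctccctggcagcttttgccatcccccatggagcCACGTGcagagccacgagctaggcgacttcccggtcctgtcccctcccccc
Cd9: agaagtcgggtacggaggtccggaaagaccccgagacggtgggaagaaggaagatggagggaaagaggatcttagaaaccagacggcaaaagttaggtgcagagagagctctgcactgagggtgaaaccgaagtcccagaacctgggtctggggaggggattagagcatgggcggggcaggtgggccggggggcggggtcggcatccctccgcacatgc
Cd81: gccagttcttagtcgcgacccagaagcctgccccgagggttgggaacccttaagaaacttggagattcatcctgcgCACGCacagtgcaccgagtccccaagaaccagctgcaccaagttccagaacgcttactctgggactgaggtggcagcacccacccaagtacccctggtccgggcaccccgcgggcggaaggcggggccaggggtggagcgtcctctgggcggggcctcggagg
Cd63: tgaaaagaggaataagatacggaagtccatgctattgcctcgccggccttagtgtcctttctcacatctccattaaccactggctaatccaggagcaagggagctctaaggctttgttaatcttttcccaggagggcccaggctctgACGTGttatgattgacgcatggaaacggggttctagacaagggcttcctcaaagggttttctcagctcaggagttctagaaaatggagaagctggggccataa
The Tspan4 window at chr7:141476130-141476379 (plus strand) is that of its second start site and holds CACGTG, a palindrome that is a core on both strands, at bases -51 and -50 from the start. The window of the other Tspan4 start site held GCGTG at base -102 and is not printed, since it runs into the first exon of the neighbouring gene Polr2l. The Cd63 window at chr10:128909095-128909344 (plus strand) holds ACGTG at base -103, and the Cd81 window at chr7:143052500-143052738 (plus strand) holds GCGTG, on the opposite strand, at base -174. The Cd9 window at chr6:125494792-125495010 (minus strand) holds no core. As a second motif, GAGGAA, a core bound by the macrophage factor PU.1, was in 6 of the 16 windows (37.5%) against 23.3% of all windows, and upstream of 5 of the members (50%) against 25.9% of all genes. The windows of all genes include genes not expressed here, so these shares are given as a description only. A match is a stretch of letters only, and binding was not measured.

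The depth was estimated at about 5870000 fragments in the WT library and 7470000 in the KO library, with 9773 and 10124 genes above 0. Hif1a read 30.4 FPKM in the WT and 21.0 in the KO library and Apoe 94.3 and 117. These are whole-gene values, and the deleted exons were not analysed here, so they do not check the labels. The macrophage markers were high in both libraries, with 8 of the 9 listed genes in the table and a summed level of 6458 FPKM in the WT and 6797 in the KO. Among the other cell types, the neutrophil markers summed to 143 FPKM in the WT and 497 in the KO, nearly all of it S100a8 and S100a9. S100a8 read 73.3 and 182 FPKM and S100a9 63.4 and 301. Cxcr2 read 5.83 and 7.96, Retnlg 0.385 and 2.46 and Ngp 0 and 2.61, and Camp, Ltf and Mmp8 were at 0 in both. The fibroblast markers summed to 44.5 and 83.9. The platelet markers summed to 7.63 and 10.3, and the T cell markers, by Cd2 alone, to 23.6 and 29.3. Dendritic cell markers summed to 125 and 140, nearly all of it Cd209a. The B cell, mast cell and basophil, eosinophil, endothelial, adipocyte and mesothelial lists each summed to at most 16.0 FPKM in either library. In such bulk samples, fewer cells of a type and less RNA per cell cannot be told apart.

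The 10 tetraspanins spanned a wide range of levels, and most lay close to the same level in both libraries. Their summed level was 1355 FPKM in the WT and 1388 in the KO. On the scale used for differences, log2(FPKM + 1) in the KO minus the WT, 6 members were above 0 and 4 below, the median was 0.02 and the range ran from -1.14 for Cd9 to 2.25 for Tspan4. The median over all 10297 genes was 0.03, with 5280 above 0 and 5017 below. In 8 of the 10 the libraries differed by less than 1.5-fold on this scale, as they did in 37.8% of all genes. By level these were 4 of 4 members at a mean of 100 FPKM or above, 3 of 5 at 20 to 100 and 1 of 1 under 20, beside 78.5%, 54.9% and 27.9% of all genes, and the count is given as a description only. One member, Tspan4, was past a 3-fold difference, in the direction of the KO, and no member was past 3-fold in the other direction. Over all genes, 27.3% were past 3-fold, 13.6% higher in the KO and 13.7% lower. That share falls as the level rises, from 35.8% of the genes with a mean under 20 FPKM to 9.8% at 20 to 100 and 2.14% at 100 or above. At 100 or above were 4 members, none of them past 3-fold, at 20 to 100 were 5 members with Tspan4 past it, and Cd82 lay under 20. A count of 1 in 10, or of 1 in 5 at that level, beside these shares is not a result about the members.

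**Figure D1:**
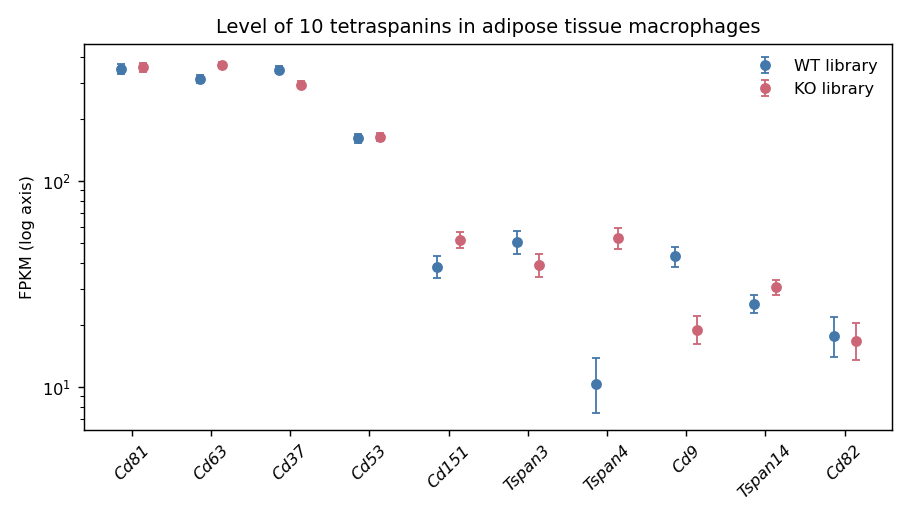
Level of each of the 10 tetraspanins in FPKM on a log axis, in the WT (blue) and the KO library (red), ordered by mean level. Points are single libraries and bars are 95% counting intervals from the estimated fragments, which hold no error between animals. Cd81, Cd63, Cd37 and Cd53 lie above 100 FPKM in both libraries, and Tspan4 and Cd9 show the widest gaps.

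**Figure D2:**
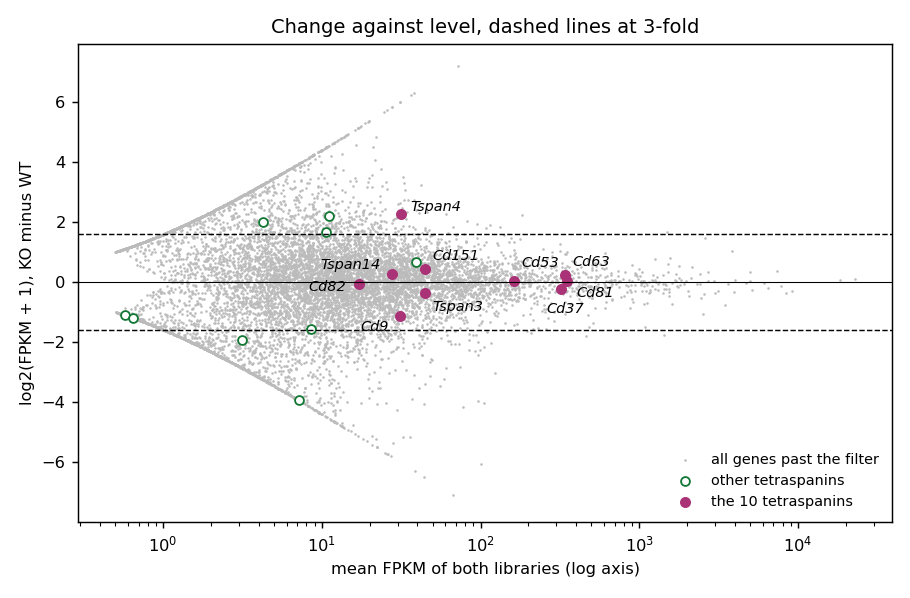
Difference between the libraries, log2(FPKM + 1) in the KO minus the WT, against the mean FPKM of both on a log axis, for all 10297 genes past the filter (grey), the other tetraspanins (open green) and the 10 tetraspanins (filled purple). Dashed lines mark 3-fold. Tspan4, at 2.25, lies past the upper line and Cd9, at -1.14, stays within.

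Tspan4, a tetraspanin known from migrasomes, the vesicles that migrating cells leave behind on their retraction fibres, had the largest difference of the members. Its level was 10.3 FPKM in the WT and 52.7 in the KO library, 5.11 times as high. It moved from the lowest of the 10 members in the WT to the fifth highest in the KO. The estimated numbers of fragments were 44.3 in the WT and 288 in the KO, and the counting intervals of its level were 7.51 to 13.8 and 46.8 to 59.2 FPKM and did not overlap. These intervals rest on an assumed transcript of median length, cover counting error only and hold no spread between animals. The 5 annotated coding transcripts of Tspan4 run from 373 to 1466 bases, which puts the WT estimate between 22.6 and 88.8 fragments. Tspan4 lies at chr7:141475240-141493427 on the plus strand (GRCm38), and its exons share 292 bases with those of Chid1 on the opposite strand. Chid1 read 12.0 FPKM in the WT and 20.3 in the KO, and since the counting is not stated to use strand, reads of the shared bases cannot be told apart. The neutrophil and fibroblast marker sums were higher in the KO library, in the same direction as Tspan4. The neutrophil sum was nearly all S100a8 and S100a9 (S100a9 at 63.4 and 301 FPKM), and the fibroblast marker Dcn read 35.0 and 62.3. The part of these cell types in the Tspan4 values was not tested.

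Cd9 and Cd81 are close relatives that bind the same immunoglobulin-domain partners and restrain the fusion of macrophages. Cd9 read 42.9 FPKM in the WT and 18.9 in the KO library, so that the KO value was 44.1% of the WT value. Its difference of -1.14 was past 2-fold but not past 3-fold, and it was the only member besides Tspan4 beyond 2-fold. Of all genes 45.6% were past 2-fold, a share that was not split by level. Among genes with a mean of 20 to 100 FPKM, where Cd9 lies, the quartiles of the difference were -0.51 and 0.52. The Cd9 values stood on an estimated 309 and 174 fragments, with counting intervals of 38.3 to 48.0 and 16.2 to 22.0 FPKM. In the order of the members Cd9 went from the sixth highest in the WT to the ninth in the KO. Of the platelet markers, which matter here because platelets are rich in Cd9, Ppbp read 5.16 FPKM in the WT and 1.57 in the KO and Itga2b 2.22 and 0, while Gp1bb read 0.243 and 8.76, and Gp9 and Gp5 were listed at 0 in both. Their part in the Cd9 values was not tested. Cd81 stayed at one level, 349.7 FPKM in the WT and 356 in the KO, a difference of 0.03. The counting intervals of Cd81, 330.2 to 370.1 and 339 to 374 FPKM, overlapped. Cd9 lies at chr6:125460266-125494791 on the minus strand and Cd81 at chr7:143052739-143067934 on the plus strand.

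The partners that bind Cd9 and Cd81 most tightly are Igsf8 and Ptgfrn. Igsf8 read 43.1 FPKM in the WT and 18.0 in the KO, a difference of -1.21, next to the -1.14 of Cd9. Ptgfrn was low in both, at 1.40 and 0.895 FPKM. Hence Cd9 and Igsf8 were both lower in the KO library while Cd81 was not, and neither was past 3-fold.

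Cd63, the tetraspanin of late endosomes and lysosomes and a common marker of exosomes, was among the 3 highest members in both libraries. It read 314 FPKM in the WT and 366 in the KO, 1.17 times as high, a difference of 0.22. It was the third highest member in the WT and the highest in the KO. Its counting intervals, 299.9 to 328 FPKM in the WT and 352 to 379 in the KO, did not overlap. Cd63 lies at chr10:128900989-128912822 on the plus strand. The markers of lipid-laden macrophages that are also members, Cd63 and Cd9, thus differed in opposite directions between the libraries.

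Cd37 and Cd53 are largely restricted to leukocytes, where they hold integrins and immune receptors in place. Cd37 read 345 FPKM in the WT and 293 in the KO, 84.7% of the WT level, a difference of -0.24. Cd53 read 161 and 164 FPKM, a difference of 0.02, with overlapping counting intervals. Cd53 was the fourth highest member in both libraries, and Cd37 went from the second highest in the WT to the third in the KO. Cd37 lies at chr7:45233632-45239115 on the minus strand and shares 13 exon bases with Tead2, which was listed at 0 in both libraries. Cd53 lies at chr3:106759921-106790149 on the minus strand.

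Cd151, the tetraspanin that binds laminin-binding integrins, read 38.1 FPKM in the WT and 51.6 in the KO, 1.35 times as high. Cd82, a binder of integrins first known as a suppressor of metastasis, read 17.6 and 16.7 FPKM, with overlapping counting intervals. So Cd151 was higher in the KO library by 0.43, and Cd82 differed by -0.07. Of the 7 integrin chains listed as partners, 6 passed the filter, 1 above 0 and 5 below, with a median of -0.27. Itga6, a laminin-binding chain, was the only one past 3-fold, and it was low, at 2.22 FPKM in the WT and listed at 0 in the KO. The chain that did not pass the filter was Itga3, the best-known laminin-binding partner of Cd151, at 0 and 0.0806 FPKM. Of the more abundant chains, Itgb2 read 188 and 216 FPKM and Itga5 98.8 and 93.4, while Itgb1 read 71.4 and 49.9, a difference of -0.51. Cd151 lies at chr7:141467392-141471473 on the plus strand and Cd82 at chr2:93419111-93463140 on the minus strand.

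Tspan14 belongs to the TspanC8 group, which carries the metalloprotease Adam10 to the cell surface. It read 25.3 FPKM in the WT and 30.4 in the KO, a difference of 0.26 with counting intervals that just overlapped. Adam10 itself read 19.3 and 23.0 FPKM, a difference of 0.24. The other proteins on that list were lower in the KO by less than 1.5-fold, with Adam17 at 38.0 and 34.9 FPKM and Hbegf, a growth factor bound by Cd9, at 42.3 and 33.9. Tspan3, for which a role in macrophages is less well known, read 50.4 FPKM in the WT and 39.0 in the KO, 77.4% of the WT level. Tspan14 lies at chr14:40906445-40966807 and Tspan3 at chr9:56131725-56165477, both on the minus strand.

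Of the 10 members, 6 had counting intervals that did not overlap between the libraries (Cd9, Cd37, Cd63, Cd151, Tspan3 and Tspan4) and 4 had intervals that did (Cd53, Cd81, Cd82 and Tspan14). Over the 10115 genes past the filter with a coding length, the intervals of 74.8% did not overlap, so that 6 of 10 is not a result about the members. That share was 76.6% at a mean of 100 FPKM or above, 73% at 20 to 100 and 75.2% under 20, and the members without overlap were 2 of 4, 4 of 5 and 0 of 1 at these levels. Cd81, Cd37, Cd63 and Cd53 led the order in the WT and Cd63, Cd81, Cd37 and Cd53 in the KO. Below them the WT order was Tspan3, Cd9, Cd151, Tspan14, Cd82 and Tspan4, and the KO order Tspan4, Cd151, Tspan3, Tspan14, Cd9 and Cd82. Neighbours with overlapping intervals, whose places cannot be told apart by counting, were Cd81 and Cd37, Tspan3 and Cd9, and Cd9 and Cd151 in the WT, and Cd63 and Cd81, Tspan4 and Cd151, and Cd9 and Cd82 in the KO. Exons of Cd9, Cd81 and Cd151 also share 218, 104 and 193 bases with the non-coding genes Gm26728, R74862 and Gm10575 on the opposite strand, whose levels were not analysed here.

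The members held nearly all of the family's summed FPKM. They were chosen with earlier results of these data known, so their share is a description and not a result about the members. Over the 31 tetraspanins with an entry in the table, the level summed to 1430 FPKM in the WT and 1484 in the KO, which is 0.244% and 0.261% of all FPKM. The 10 members made up 94.7% of this in the WT and 93.5% in the KO, and Cd37, Cd53, Cd63 and Cd81 alone 81.8% and 79.4%. Within the family the share of Cd9 was 3.003% in the WT and 1.28% in the KO, and that of Tspan4 was 0.722% and 3.55%.

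Of the other 21 tetraspanins, 11 were at 0 in both libraries and 9 passed the filter, of which 3 were past 3-fold higher in the KO and 2 past 3-fold lower. By mean level all of these 5 lay below the lowest of the members, Cd82, at the level where 35.8% of all genes were past 3-fold, and 5 of 9 is given as a description only. Tspan5 read 4.63 FPKM in the WT and 16.7 in the KO, Tspan33 read 3.38 and 18.8, and Tspan13 read 1.09 and 7.41. Tspan5 and Tspan33 belong, like Tspan14, to the TspanC8 group. Tspan17, a further member of that group, was lower in the KO, at 13.3 and 3.78 FPKM, 28.5% of the WT level and just short of the threshold on the log2(FPKM + 1) scale, while Tspan15 read 1.29 and 0 and Tspan10 was at 0 in both. The TspanC8 members thus differed in both directions, and Tspan14, the highest of them, differed least among those above 0. Tspan7 read 5.56 FPKM in the WT and 0.715 in the KO, and Tspan32, known from leukocytes, read 14.3 and was listed at 0 in the KO. Among the 7171 genes with a mean under 20 FPKM, where Tspan32 lies, 944 were listed at 0 in the WT only and 798 in the KO only. At a mean of 20 to 100 FPKM these counts were 9 and 11. Without read counts, a listed 0 such as that of Tspan32 cannot be told from a missing estimate. Tspan31 was the highest of the other tetraspanins, at 30.4 and 48.4 FPKM, a difference of 0.65, and Tspan1 read 1.15 and 0. The median of the 9 was -1.10, which is the value of Tspan1 and so depends on the pseudocount. Its direction also depends on the filter, since it was 1.65 where both libraries had to reach an FPKM of 1, 0.65 with a mean of at least 5 and 0 with no filter.

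**Figure D3:**
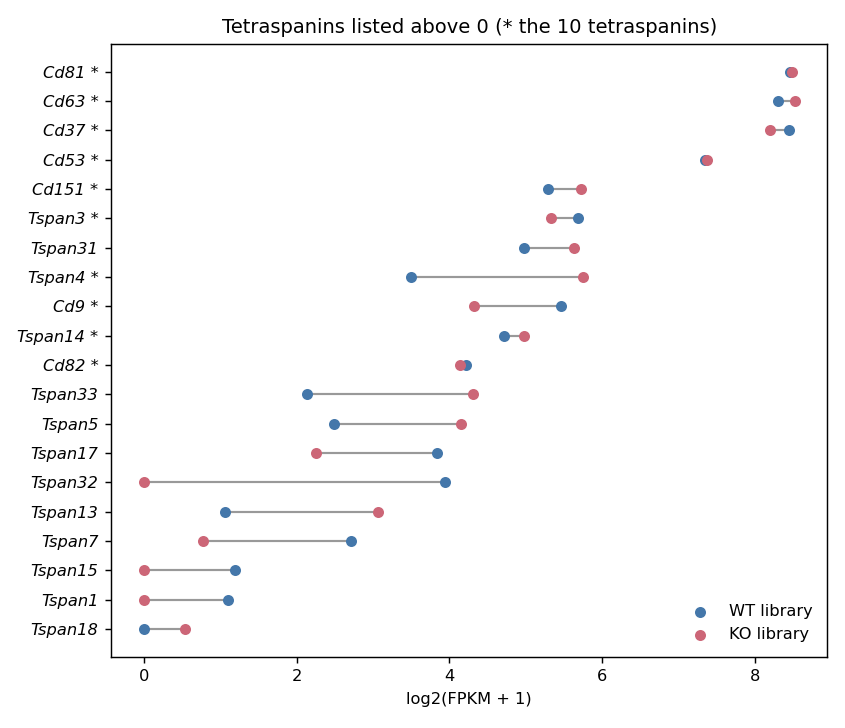
Level on the log2(FPKM + 1) scale of every tetraspanin listed above 0 in the WT (blue) or the KO library (red), with a line joining both values, and the 10 tetraspanins marked with an asterisk. The 4 at the top, Cd81, Cd63, Cd37 and Cd53, show short lines, and Tspan32, listed at 0 in the KO, shows the longest.

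Tetraspanins work with partner and pathway genes, which were read from fixed lists and set beside the median of 0.03 over all genes. Of 11 receptors and surface proteins that bind tetraspanins, 9 passed the filter, 5 above 0 and 4 below, with a median of 0.10 and none past 3-fold. The highest were H2-Aa, at 8186 FPKM in the WT and 7419.6 in the KO, and H2-Ab1, at 5600 and 4666, chains of MHC class II. Ifitm3 followed at 2208 and 2624 FPKM, and the scavenger receptor Cd36 at 288 and 418. Clec7a, the receptor Dectin-1 that is held by Cd37, had the lowest value of the list, at 95.2 and 44.1 FPKM, and was chosen after its values had been seen. Its difference was -1.09, beside -0.24 for Cd37.

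Of 19 genes of exosome formation, 16 passed the filter, 5 above 0 and 11 below, with a median of -0.38. Past 3-fold were Smpd3, the neutral sphingomyelinase, at 0.474 FPKM in the WT and 6.14 in the KO, and Vps4b, an ATPase that disassembles ESCRT-III, at 15.6 and 2.40. The highest of the list were Rab7 at 235 and 451 FPKM and Sdcbp, the syntenin that links Cd63 to syndecans, at 157 and 135. Sdcbp differed by -0.21 and Cd63 by 0.22. Clathrin adaptor subunits, which carry Cd63 between the surface and lysosomes, were split 6 and 6, with a median of 0.09 and Ap1m1 alone past 3-fold at 9.57 and 36.0 FPKM. Ap2m1 read 316 and 216, Ap2s1 147 and 196 and Ap2a2 73.8 and 95.5. The 8 proteins of the lysosome, the compartment of Cd63, were split 4 and 4, with a median of 0.07. Tmem192 was past 3-fold at 14.5 and 77.4 FPKM, while Lamp1, at 648 and 645, Lamp2, at 332 and 369, and Npc2, at 186 and 163, lay near one level.

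**Figure D4:**
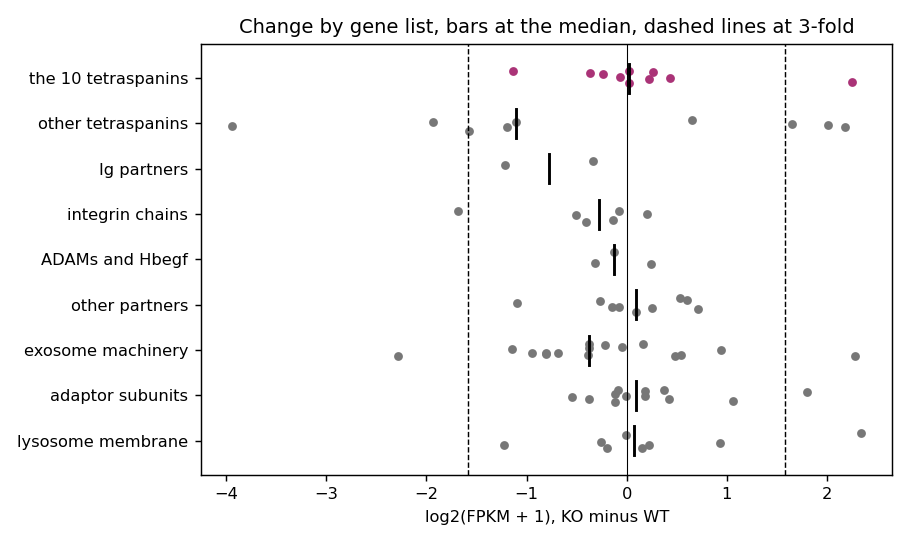
Difference between the libraries, log2(FPKM + 1) in the KO minus the WT, for each gene past the filter in the 10 tetraspanins (purple) and in the family, partner and pathway lists (grey), with a black bar at each list's median and dashed lines at 3-fold. The median of the 10 tetraspanins is 0.02, and Tspan4 is their only gene past a dashed line.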

How the data were processed

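Expression was measured by poly(A) RNA sequencing in 2 libraries, 1 per genotype. The authors deposited 1 table of FPKM values per gene, and the column named "mut" was taken as the KO library. The submitters' processing notes name TopHat2 2.0.9, Cufflinks 2.2.1, CASAVA 1.8.2 and mm9, and annotation, filters and strand setting are not given in the sources used here. Of 20749 lines, 401 repeats (0 of them of members) were dropped and 18 further lines of an identifier were summed, which left 20330 Ensembl genes, 20035 with a symbol in GENCODE M21 (GRCm38). Coordinates and lengths are from GENCODE M21 and promoters from RefSeq GRCm38.p6, not from the build of the authors.

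Differences are log2(FPKM + 1), KO minus WT, for genes that reached an FPKM of 1 in either library, and a gene was counted past a 3-fold difference on this scale, which understates the change of low genes. Without replicates no p-value was computed. Depth was read from the most frequent value of FPKM × kilobase below 1 in genes with 1 transcript. This value was assumed to be 1 fragment (0.170 in the WT, 0.134 in the KO), and 19 and 20 genes lay near it. Fragments per gene assume its median coding length. Intervals are exact Poisson at 95% and cover counting error only. PCR copies are not independent molecules, so the intervals can be too narrow even for counting error. The calls and scalings were tested on simulated Poisson counts, with changes planted in genes at a mean of 20 FPKM or more. The simulation held no spread between libraries, so it cannot show how often a call is false in these data. Python 3.11.15, numpy 2.4.6, pandas 2.3.3, scipy 1.17.1 and matplotlib 3.10.9 were used.

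The members and lists were chosen with earlier results of these data known. Named were all members and the other tetraspanins past the filter. Per partner or pathway list, the genes named were those past 3-fold and, where fewer than 4, its highest by mean FPKM up to 4 in all. Clec7a and Itga3 were named besides, chosen after their values had been seen. Tspan10 and Tspan18, which did not pass the filter, were named as a TspanC8 member and as a neighbour of Cd82. No likeness of pattern between genes was computed, since 2 libraries give none. Alternatives varied the pseudocount, filter, scaling, handling of repeated identifiers and threshold.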

Additional observations from a re-analysis of the deposited data

How the results depend on the processing

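Pseudocounts of 0.1 and 0.01, the filter (none, an FPKM of 1 reached in both libraries, a mean of 5), 3 other scalings and the handling of repeated identifiers were varied one at a time. With no replicate spread, a move within 1.5-fold was taken as small, and the 50 values of the 10 tetraspanins that a pseudocount or scaling could alter stayed within it. The filters and the handling of identifiers cannot alter a member's own value. Tspan4 ranged from 2.21 to 2.35, Cd9 from -1.18 to -1.10 and the median of the 10 from -0.01 to 0.07. Cd53 and Cd81 changed sign, staying between -0.01 and 0.07, when the median of all genes was set to 0. At a 2-fold threshold 1 member, Cd9, was lower in the KO, against 0 at 3-fold. The median of the other tetraspanins was less stable. It was -1.10 as reported, -1.78 and -1.81 at pseudocounts of 0.1 and 0.01, and 0 with no filter. It became 1.65 where both libraries had to reach an FPKM of 1 and 0.65 with a mean of at least 5. The first of these filters leaves out Tspan1, Tspan7, Tspan15 and Tspan32, and the second Tspan1, Tspan7, Tspan13 and Tspan15. Of the 18 values of single other tetraspanins at the other pseudocounts, 10, those of Tspan1, Tspan7, Tspan13, Tspan15 and Tspan32, moved by more than 1.5-fold, with the same sign. The 43 altered medians of partner and pathway lists stayed within it. No paired analysis was possible because WT and KO have 1 library each, and for the same reason no replicate could be left out. Depth limits the low genes, as the estimated 44.3 fragments behind Tspan4 in the WT show.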

Other observations

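Of the 10 tetraspanins, 4 have another tetraspanin as a close neighbour on their chromosome (GRCm38), in 3 pairs. Cd151 and Tspan4 lie 3.77 kb apart on chromosome 7, with Polr2l, a small subunit of RNA polymerases, between them. All 3 genes were higher in the KO library, Cd151 at 38.1 and 51.6 FPKM, Polr2l at 9.36 and 21.3 and Tspan4 at 10.3 and 52.7. Cd81 and Tspan32 lie 33.1 kb apart with no coding gene between them, and here Cd81 read 349.7 and 356 FPKM while Tspan32 read 14.3 in the WT and was listed at 0 in the KO. Cd82 and Tspan18 lie 84.6 kb apart, again with no coding gene between, and Tspan18 read 0 in the WT and 0.458 FPKM in the KO beside 17.6 and 16.7 for Cd82. Whether neighbours differ together was not tested.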
